A study of Mus musculus with 11 samples.

Results

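Histone genes whose transcripts were recovered after poly(A) selection were followed in mouse embryonic stem cells on their way to ventral hindbrain neurons. The count table lists 70 symbols of the 4 histone gene clusters (Hist1, Hist2, Hist3 and Hist4). Of these, 16 reached at least 10 counts in 2 or more of the 11 libraries and are called the clustered genes here. To them were added 6 histone variant genes that lie outside the clusters, H1f0, H2afx, H2afz, H2afy, H3f3a and H3f3b, which makes 22 genes of the 38197 in the table. Just inside the count rule lay Hist1h4j, with at most 10 counts and 10 reached in 2 libraries. Just outside it lay Hist1h2bg, with at most 11 counts and 10 reached in 1 library.

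The cells were wild-type E14 embryonic stem cells of strain 129, grown in monolayer. All libraries carry the same treatment label, RA (retinoic acid) and SAG (a small molecule that activates Smoothened) for days 0 to 3. Unsorted cells were sampled on days 0, 1, 2 and 3 with 2 libraries each, and 3 libraries hold neural progenitors sorted for Prominin-1, labelled day 3.5 in one place and 3 days in another. The sorted libraries also carry another project prefix, so sorting, day and project cannot be told apart. RNA was isolated with a ZymoPure kit, and all 11 libraries were made with Illumina TruSeq poly(A) selection, which keeps RNA that ends in a run of adenosines. Nothing in the labels tells whether libraries of one day are separate cultures, and p-values therefore reflect only how far these samples spread, which may be technical.

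Histones are the proteins around which DNA is wound. Most are made in S phase from clustered genes whose mRNAs end in a short stem-loop, bound by the stem-loop binding protein SLBP, and carry no poly(A) tail. Variant histones such as H1.0, H2A.Z, macroH2A and H3.3 come from single genes with ordinary polyadenylated mRNAs and are also made outside S phase. Some clustered genes are known to give polyadenylated transcripts as well, often in cells that leave the cell cycle.

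The annotated 3' ends of the genes were examined first. The letters of the histone stem-loop, in capitals below, were searched in GENCODE M21 transcripts (GRCm38). They were found in 8 of the 16 clustered genes, in 18 of the 54 clustered symbols below the count rule, in 0 of the 6 variant genes and in 29 of 55341 annotated genes, or 0.052%. The stem-loops found in the clustered genes all had the same letters, and some annotated transcripts are short, with 381 bases for Hist2h2bb and 393 for Hist1h2ai. Absence of the letters from an annotated transcript therefore does not show that a gene lacks a stem-loop. In all 8 clustered genes with the letters an annotated transcript ran more than 100 bases past the stem-loop, as it did in 5 of the 54 symbols below the rule. The longest annotated transcript had a median of 1202 bases in the 16 genes and 486 bases in the other 54. A rule on raw counts can favour genes with longer annotated transcripts, so these shares and lengths are a description only. The stem-loops are shown for the 3 clustered genes that changed with time and for Hist1h2ac, with 7 bases on each side and the stem-loop in capitals.
Hist1h1c: tccaaaaGGCTCTTTTCAGAGCCaccactc
Hist3h2a: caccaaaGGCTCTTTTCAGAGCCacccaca
Hist3h2ba: acccaaaGGCTCTTTTCAGAGCCaccttcc
Hist1h2ac: acccaaaGGCTCTTTTCAGAGCCcccactt
These lie at chr13:23739505-23739534 (plus strand) for Hist1h1c, chr11:58955165-58955194 (plus) for Hist3h2a, chr11:58949342-58949371 (plus) for Hist3h2ba and chr13:23683470-23683499 (minus) for Hist1h2ac. The annotated transcripts go on for another 840 bases after the stem-loop in Hist1h1c, 1643 in Hist3h2a, 169 in Hist3h2ba and 2010 in Hist1h2ac.

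A poly(A) signal, AATAAA or ATTAAA, stood in the last 100 bases of at least 1 annotated transcript in 7 of the 16 clustered genes and in 6 of the 6 variant genes. Genes with more annotated transcripts can show it more easily. H2afy has 8, and only a transcript not annotated as protein coding held the signal. The share over all annotated genes was not computed. The signal is shown in capitals for 5 genes that changed, with 12 bases on each side.
Hist1h1c: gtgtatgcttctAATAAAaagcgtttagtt
Hist3h2a: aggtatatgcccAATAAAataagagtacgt
Hist3h2ba: cataatggtattAATAAAtttggttcaatt
H1f0: ttaaaactttaaAATAAAactggaaaggaa
H2afx: tgggctaattttATTAAAggatcgtttggt
The signals lie at chr13:23740330-23740359 for Hist1h1c, chr11:58956785-58956814 for Hist3h2a, chr11:58949495-58949524 for Hist3h2ba, chr15:79030471-79030500 for H1f0 and chr9:44336031-44336060 for H2afx, all on the plus strand. Hist1h1c, Hist3h2a and Hist3h2ba each have 1 annotated transcript, which holds the stem-loop letters and, after them, a poly(A) signal. No transcript that ends at the stem-loop is annotated for these genes. A match of letters is a description and does not show which end the RNA used.

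Promoters of 14 of the 16 clustered genes were found in the RefSeq table (GRCm38.p6), from 250 bases before to 50 after the start; Hist1h2bc and Hist2h2be were not matched. CCAAT was found on either strand in 12 of the 14, against 37.4% of 32851 promoters. TATAAA was found in 9 of 14, against 13.6%, and the octamer ATTTGCAT, known from H2B promoters, in 4 of 14, against 1.7%. AAACACA, the H1 box of linker histone promoters, was found in 4 of 14, against 7.2%. The 3 clustered genes that changed are shown with these motifs in capitals on either strand; no 2 of the motifs overlap there.
Hist1h1c: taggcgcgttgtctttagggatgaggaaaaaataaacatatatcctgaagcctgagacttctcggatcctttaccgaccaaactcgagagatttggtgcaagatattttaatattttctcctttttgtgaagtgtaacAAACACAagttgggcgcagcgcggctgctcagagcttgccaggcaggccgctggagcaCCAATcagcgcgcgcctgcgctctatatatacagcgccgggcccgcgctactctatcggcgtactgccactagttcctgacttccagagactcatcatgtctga
Hist3h2a: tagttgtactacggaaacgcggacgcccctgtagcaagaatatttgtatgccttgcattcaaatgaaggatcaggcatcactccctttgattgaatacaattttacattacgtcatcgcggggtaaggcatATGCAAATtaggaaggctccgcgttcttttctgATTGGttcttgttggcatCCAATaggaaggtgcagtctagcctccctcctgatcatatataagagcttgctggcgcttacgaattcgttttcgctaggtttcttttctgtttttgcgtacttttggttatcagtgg
Hist3h2ba: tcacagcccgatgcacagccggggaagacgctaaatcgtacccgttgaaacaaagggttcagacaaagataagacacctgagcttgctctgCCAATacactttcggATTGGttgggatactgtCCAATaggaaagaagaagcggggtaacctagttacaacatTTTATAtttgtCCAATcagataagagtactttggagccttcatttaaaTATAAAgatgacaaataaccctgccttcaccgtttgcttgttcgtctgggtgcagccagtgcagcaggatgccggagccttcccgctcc
They cover chr13:23738557-23738856, chr11:58954435-58954734 and chr11:58948661-58948960, each on the plus strand. Hist1h1c holds the H1 box and CCAAT, Hist3h2a holds the octamer and CCAAT on both strands, and Hist3h2ba holds CCAAT and TATAAA on both strands. Hist3h2ba and Hist3h2a are neighbours, 5151 bases apart.

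The recovered genes were spread unevenly over the histone classes. Of 6 linker histone H1 symbols 5 passed the count rule, but of the core histones only 3 of 20 H2A, 5 of 19 H2B, 1 of 12 H3 and 2 of 13 H4 symbols did. Sequence shared with other genes was examined only for the 22 genes and not for the symbols below the rule. The part of shared sequence in these class shares was therefore not tested. By cluster, 12 of 56 Hist1, 2 of 10 Hist2, 2 of 3 Hist3 and 0 of 1 Hist4 symbols passed, and 11 of the 70 symbols had 0 counts in all 11 libraries. How reads shared between gene copies were counted is not known, so 0 counts do not show absence of RNA. Together the 16 clustered genes took 0.00083 to 0.00245 percent of a library's counts, and all 22 genes took 0.0771 to 0.134 percent, out of library totals of 13173674 to 30384599. The 4 highest, Hist1h1c, Hist3h2a, Hist2h2be and Hist1h2bc, held 70.2% of the clustered counts, and Hist1h1c alone held 33.6%. Totals of the sorted libraries, 13173674 to 17113430, were below those of the other 8, which were 26136331 to 30384599, so low genes are less precise there.

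Per length, the clustered genes lay far below the variant genes. Deposited FPKM, which is a level per kilobase of transcript, averaged over the 11 libraries 457 for H3f3b and 426 for H3f3a, the genes of the replacement histone H3.3. It averaged 337 for H2afz (H2A.Z), 126.5 for H2afy (macroH2A1), 57 for H1f0 (H1.0) and 56 for H2afx (H2A.X). The highest clustered gene was Hist1h1c, a linker histone gene, with 3.11 FPKM, then Hist3h2ba with 2.45 and Hist1h2bc with 2.4, and the lowest was Hist1h1d with 0.0913. All 16 clustered genes lay below every variant gene, on FPKM and on CPM (counts scaled to library size with TMM factors) per kilobase of the longest transcript.

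The order of the variant genes depended on the scale. In FPKM, H3f3b and H3f3a overlapped over the libraries, with 349 to 657 and 335 to 534, and so did H1f0 with 12.7 to 92.6 and H2afx with 26 to 83. In CPM per kilobase H3f3a held the sixth place and not the second, with 15.3 against 246 for H3f3b, and H2afz stood at 31.4. The FPKM of H3f3a was 27.9 times its CPM per kilobase and that of H2afz 10.8 times, against 0.734 to 2.43 for the other 4 variant genes. H3f3a shares stretches of 50 bases with 193 other annotated genes and 72.9% of its stretches are unique, and H2afz shares with 6 genes and has 64.6% unique. The part of shared sequence in the gap between the scales was not tested.

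**Figure D1:**
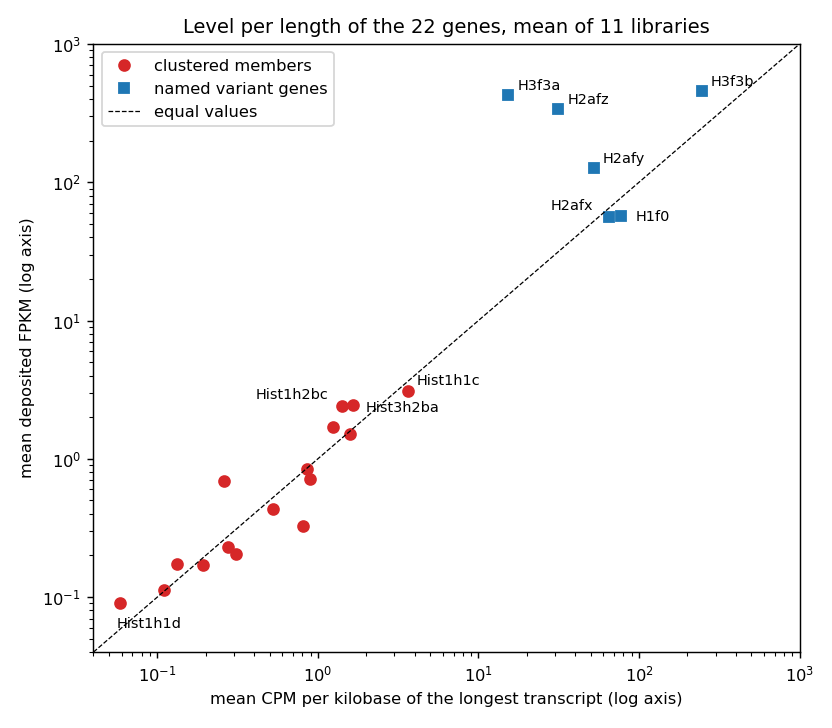
Mean level per length of the 22 genes over 11 libraries, deposited FPKM (vertical, log axis) against TMM CPM per kilobase of the longest annotated transcript (horizontal, log axis); each point is 1 gene, red for clustered and blue for variant genes, and the dashed line marks equal values. All 16 clustered genes lie at or below 3.11 FPKM, and H3f3a and H2afz stand far above the line.

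Some of the histone genes share sequence or position with other annotated genes. Most 50-base stretches were unique in 20 of the 22 genes; the exceptions were Hist1h2ai with 9.9% and Hist2h2bb with 0%, whose whole length is also annotated in Gm42743 and, on the other strand, Gm20628. Hist1h1e and Hist1h2be overlap by 496 bases on the same strand. The 2146 bases of Hist3h2a lie within the span of the gene Trim17, on the same strand and from the same start at position 58954685 of chromosome 11. Of its 2097 stretches of 50 bases 68.5% were unique to it, and at most 660 were shared with transcripts of any one other gene, Trim17 sharing the most. No source used here gives the counting strand or annotation, so how shared reads were assigned in these 5 genes is uncertain.

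Changes were tested with edgeR's quasi-likelihood test over all genes, and called at an adjusted p (Benjamini-Hochberg) under 0.05. Levels below are CPM with TMM scaling, given as mean ± SD, with n = 2 libraries a day and n = 3 in the sorted group. Of the 22 genes, 21 passed the filter on low counts; Hist1h4j did not. Only 5 of the 16 clustered genes had 10 or more counts in both day 0 libraries, and 8 were below 10 in both, against 8 and 2 on day 1. Low counts on day 0 and higher ones later could therefore admit a gene, and the share of the clustered genes that went up is a description of these genes only.

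The first comparison was day 1 with the stem cells of day 0. Of the 21 genes tested, 4 rose and 0 fell from day 0 to day 1, that is 2 of 15 clustered and 2 of 6 variant genes. Over all 16810 genes tested, 20.9 percent were called, 12 percent higher and 8.91 percent lower. Their log2 fold changes had a median of 0.81, against 0.01 over all genes. In 13 of the 21 both day 1 libraries lay above both day 0 libraries and in 0 below them; over all genes this held for 29.1 percent and 26.5 percent. The 0 called lower came with 0 at an unadjusted p under 0.05 and 0 in DESeq2.

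At the net change from day 0 to day 3, 5 genes rose and 0 fell, namely 2 of 15 clustered and 3 of 6 variant genes. The background was 53.9 percent called, 27.6 percent higher and 26.3 percent lower, so the share that rose was not above it. The median log2 fold change was 0.96, against 0.02 over all genes. At an unadjusted p under 0.05 there were 8 higher and 1 lower, and DESeq2 called 5 higher and 1 lower. Both day 3 libraries lay above both day 0 libraries for 12 of the 21 and below them for 3, where all genes gave 39.8 percent and 37.6 percent.

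**Figure D2:**
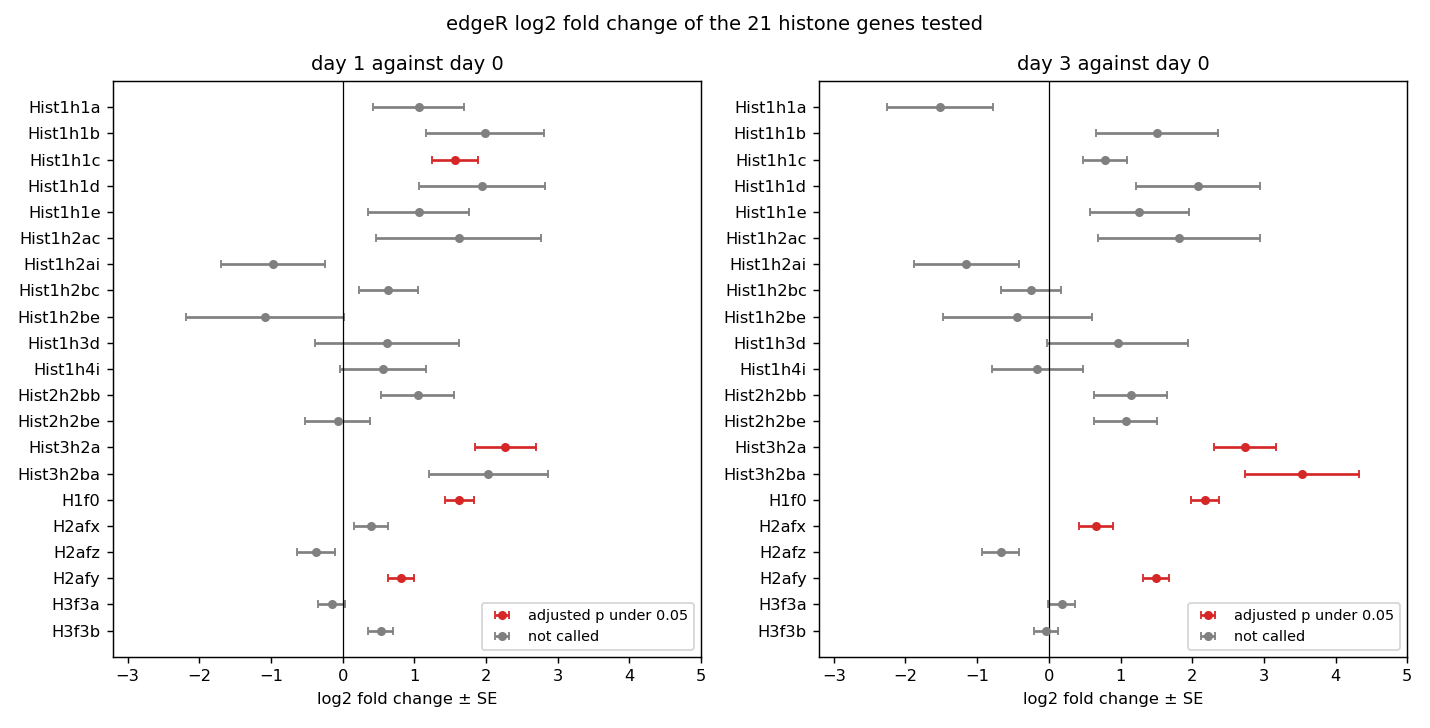
Log2 fold changes with SE from edgeR for the 21 histone genes tested, day 1 against day 0 (left) and day 3 against day 0 (right); red marks an adjusted p under 0.05. On the left 4 genes and on the right 5 genes are red, all to the right of 0, and the SE is widest for clustered genes with few counts.

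Among linker histones, H1f0 rose most clearly. It encodes H1.0, the linker histone typical of cells that divide slowly or have differentiated, and lies at chr15:79028450-79030504 in 1 exon. Its level was 49.3 and 42.3 CPM on day 0, 138 and 148 on day 1, 159 and 140 on day 2, 246 and 172 on day 3, and 233, 203 and 224 in the sorted cells. All later libraries lay above both day 0 libraries, and day 1 and day 2 overlapped. From 45.8 ± 4.92 on day 0 to 143 ± 7.09 on day 1 the log2 fold change was 1.63 ± 0.20 (SE; edgeR adjusted p = 0.00107). By day 3 it was 2.18 ± 0.20 (edgeR adjusted p = 3.42e-05), a 4.55-fold difference.

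Hist1h1c, which encodes the linker histone H1.2 and lies at chr13:23738808-23740367, rose early and was highest on days 1 and 2. It stood at 3.56 and 2.34 CPM on day 0, 8.27 and 9.41 on day 1, 9.4 and 8.46 on day 2, 4.17 and 6.07 on day 3, and 2.73, 3.75 and 4.32 in the sorted cells. The day 1 and day 2 libraries were above all others, and the sorted cells overlapped with day 0. The rise on day 1 had a log2 fold change of 1.57 ± 0.32 (edgeR adjusted p = 0.00941), or 2.97-fold. The later difference of day 3 from day 2, -0.80 ± 0.31, was not called, nor was day 3 against day 0, 0.78 ± 0.31 (edgeR adjusted p = 0.0612).

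The other clustered H1 genes were low and none was called. Hist1h1a was 0.78 and 0.595 CPM on day 0, 0.827 and 2.07 on day 1, 0.412 and 0.952 on day 2, 0.347 and 0.131 on day 3, and 0.296, 0.259 and 0.293 in the sorted cells. It was the clustered H1 gene that was lower on day 3 than on day 0 in both libraries, with a log2 fold change of -1.52 ± 0.74 (edgeR adjusted p = 0.11). Hist1h1e ran from 0.212 to 0.884 CPM over the 11 libraries. Hist1h1b and Hist1h1d ran from 0.0679 to 0.513 and from 0.0849 to 0.979.

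Among H2A genes, H2afy and Hist3h2a rose. H2afy encodes macroH2A1, a variant with a large extra domain found on silent chromatin such as the inactive X chromosome, and lies at chr13:56073619-56136361. Its level was 96.8 and 73.1 CPM on day 0, 132.4 and 167 on day 1, 219 and 225 on day 2, 238 and 245 on day 3, and 301, 303 and 304 in the sorted cells. Each group lay wholly above the one before. The log2 fold change on day 1 was 0.81 ± 0.18 (edgeR adjusted p = 0.0137) and by day 3 it was 1.5 ± 0.18 (edgeR adjusted p = 0.000162), or 2.82-fold. The call on day 1 was lost without replicate 2 of day 0 (0.63, edgeR adjusted p = 0.0764) or without replicate 2 of day 1 (0.64, 0.061). The steps from day 1 to 2 (0.56 ± 0.18, edgeR adjusted p = 0.0531) and from day 3 to the sorted cells (0.34 ± 0.14) were not called.

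Hist3h2a, a clustered H2A gene at chr11:58954685-58956830, had 0.713 and 0.34 CPM on day 0. It had 2.59 and 2.64 on day 1, 2.36 and 3.41 on day 2, 3.7 and 3.53 on day 3, and 3.5, 3.49 and 2.93 in the sorted cells. No later library came near those of day 0. The log2 fold change was 2.27 ± 0.43 on day 1 (edgeR adjusted p = 0.00725) and 2.74 ± 0.43 on day 3 (edgeR adjusted p = 0.000715). At day 3 it rested on 225 counts against 29, a ratio of 6.6 with a 95% exact binomial interval of 4.47 to 10.1, which covers counting error only.

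Trim17, which shares part of its transcript sequence and its start, encodes a tripartite motif protein. Its level was 0.136 and 0.467 CPM on day 0, 0.97 and 2.7 on day 1, 0.487 and 0.842 on day 2, 2.94 and 1.89 on day 3, and 2.73, 1.68 and 3.29 in the sorted cells. It rose as well, by 2.63 ± 0.72 on day 1 (edgeR adjusted p = 0.0314) and 3.03 ± 0.71 on day 3 (edgeR adjusted p = 0.00626). Its part in the counts of Hist3h2a was not tested.

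H2afx encodes H2A.X, which is phosphorylated at DNA breaks, and lies at chr9:44334694-44336077. It had 76.6 and 48.8 CPM on day 0, 69.5 and 96.6 on day 1, 121 and 130.8 on day 2, 88.4 and 111 on day 3, and 72.6, 78.3 and 90.1 in the sorted cells. Day 2 was the highest, and day 0 and day 1 overlapped. Day 3 against day 0 gave 0.66 ± 0.24 (edgeR adjusted p = 0.0439), just past the threshold. The call held in 8 of 18 alternatives: without replicate 2 of day 0 the log2 fold change was 0.38, without replicate 2 of day 3 it was 0.49, and with an offset for GC content it turned to -0.45 (edgeR adjusted p = 0.123).

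H2afz, the gene of H2A.Z, a variant placed at promoters, was not called. It had 35.6 and 49.7 CPM on day 0, 38.5 and 27.9 on day 1, 33.3 and 28 on day 2, 22.1 and 31.7 on day 3, and 38.2, 33.2 and 30.7 in the sorted cells. Both day 3 libraries were below both of day 0, at -0.67 ± 0.26 (edgeR adjusted p = 0.0568). DESeq2 called this difference lower (-0.69, adjusted p = 0.0372), as did limma on log2(FPKM + 1) (-0.79, adjusted p = 0.00936). The other clustered H2A genes were not called: Hist1h2ai ran from 0.126 to 0.645 CPM and Hist1h2ac from 0 to 0.586.

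**Figure D3:**
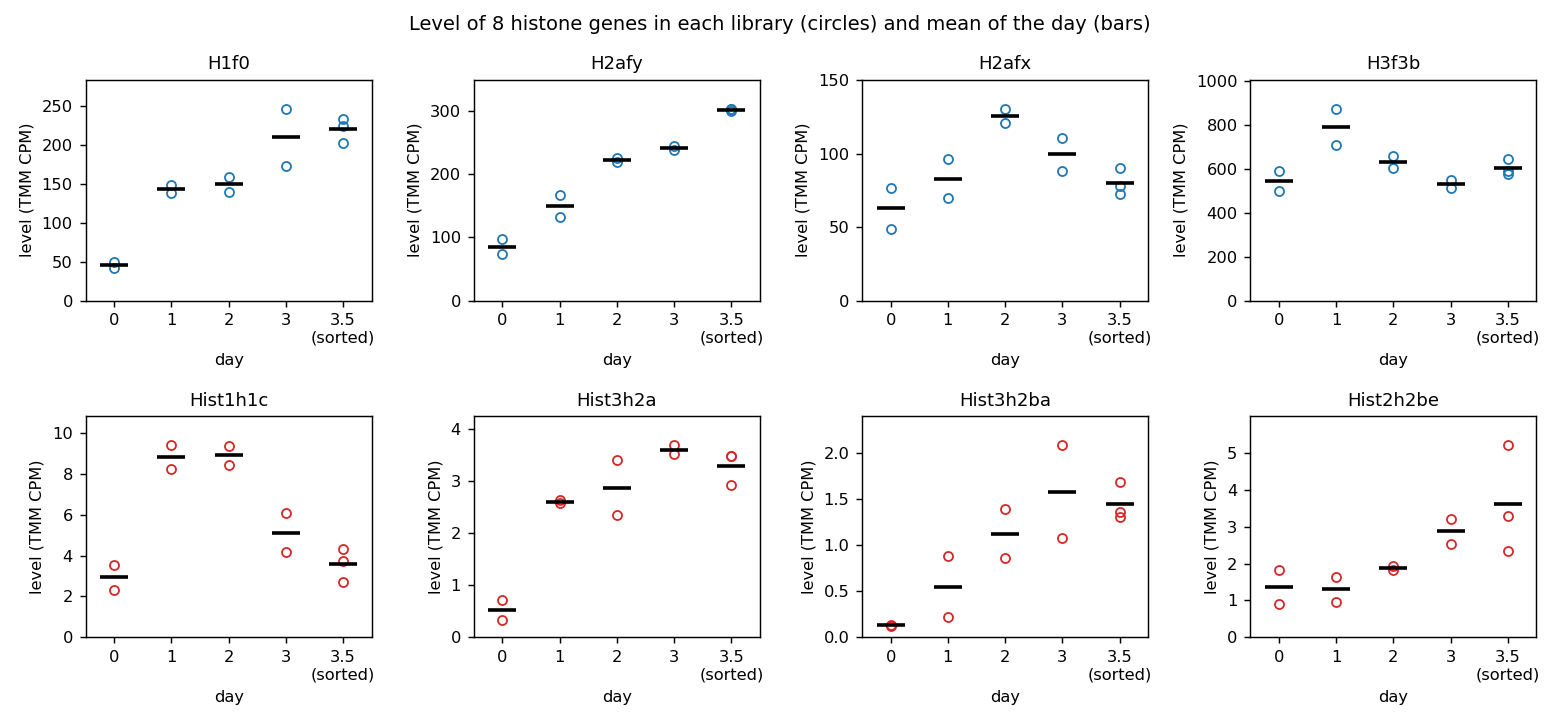
Level (TMM CPM, linear axes from 0) of 4 variant genes (upper row, blue) and 4 clustered genes (lower row, red) by day; circles are single libraries and bars the mean of the day. H1f0, H2afy, Hist3h2a and Hist3h2ba are lowest on day 0, Hist1h1c is highest on days 1 and 2, and H2afx on day 2.

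Of the 5 clustered H2B genes, Hist3h2ba rose. It lies at chr11:58948920-58949533 and had 0.136 and 0.127 CPM on day 0, 0.216 and 0.879 on day 1, 0.861 and 1.39 on day 2, 2.08 and 1.08 on day 3, and 1.3, 1.36 and 1.68 in the sorted cells. All libraries from day 2 on lay above those of day 0. Its log2 fold change on day 3 was 3.53 ± 0.79 (edgeR adjusted p = 0.00474). The count behind it was 99 against 7, a ratio of 12 with a 95% exact binomial interval of 5.63 to 30.7. At day 0 it had 4 and 3 counts, so the rule admitted it through the later days.

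Hist2h2be, at chr3:96221119-96223738, had 0.916 and 1.83 CPM on day 0, 0.97 and 1.63 on day 1, 1.95 and 1.83 on day 2, 3.22 and 2.55 on day 3, and 5.22, 3.3 and 2.34 in the sorted cells. Day 3 lay above day 0, at 1.07 ± 0.44, but was not called (edgeR adjusted p = 0.0666). Hist1h2bc had 1.49 and 1.57 CPM on day 0, 2.8 and 2.01 on day 1, 2.36 and 2.78 on day 2, 0.884 and 1.7 on day 3, and 0.77, 0.776 and 0.732 in the sorted cells. The sorted libraries were its lowest and days 1 and 2 its highest, and no comparison was called. Hist1h2be and Hist2h2bb ran from 0.0316 to 0.712 and from 0.146 to 1.17 CPM and were not called.

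The H3 and H4 genes did not pass the test in any comparison. H3f3b, at chr11:116021912-116027962, had 500 and 589 CPM on day 0, 875 and 708 on day 1, 606 and 658 on day 2, 514 and 549 on day 3, and 645, 590 and 578 in the sorted cells. Day 1 was above all other days, with 0.53 ± 0.17 against day 0 (edgeR adjusted p = 0.0568), which limma on log2(FPKM + 1) called (0.73, adjusted p = 0.0201). H3f3a, the other H3.3 gene, had 33.5 and 44.5 CPM on day 0, 36.9 and 33.5 on day 1, 41.9 and 41.7 on day 2, 42 and 46.5 on day 3, and 55.9, 48.6 and 52.3 in the sorted cells. Its sorted libraries were the highest, at 0.25 ± 0.15 against day 3, not called. Hist1h3d ran from 0.0375 to 0.49, Hist1h4i from 0.253 to 0.628 and Hist1h4j from 0 to 0.359 CPM.

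Between neighbouring days after day 1 no histone gene passed the edgeR test. From day 1 to day 2 there were 0 calls, with 2 higher and 0 lower at an unadjusted p under 0.05 and 1 higher in DESeq2, H2afy; the background was 19.6 percent, 9.65 percent higher and 9.99 percent lower. Both libraries of day 2 lay above those of day 1 for 6 genes and below for 1, where all genes gave 34.8 percent and 33.6 percent. From day 2 to day 3 there were 0 calls, with 1 higher and 2 lower at an unadjusted p under 0.05 and 0 in DESeq2, against 4.07 percent of all genes, 2.81 percent higher and 1.26 percent lower. Libraries did not overlap for 5 genes higher and 8 lower on day 3, where all genes gave 30.6 percent and 31.4 percent. Over the 4 days together 6 genes changed by the F test of edgeR, Hist1h1c, Hist3h2a, Hist3h2ba, H1f0, H2afx and H2afy, against 53.7 percent of all genes.

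The sorted progenitors gave 0 calls against unsorted day 3 cells. Of the 16 clustered genes, 10 were below 10 counts in all 3 sorted libraries and 5 reached 10 in all of them. Low counts thus limit what this comparison could call among the clustered genes. At an unadjusted p under 0.05 there were 1 higher and 1 lower, DESeq2 had 0, and the background was 3.37 percent of 17006 genes, 0.435 percent higher and 2.93 percent lower. Libraries did not overlap for 4 genes higher and 4 lower in the sorted cells, against 13.2 percent and 19.9 percent of all genes. The largest differences were -1.42 ± 0.48 for Hist2h2bb, which cannot be counted apart from 2 other annotated genes, and -1.16 ± 0.70 for Hist1h1d, both named after their values were seen. H1f0 differed by 0.08 ± 0.16 and Hist3h2a by -0.11 ± 0.30.

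Summed over the 16 clustered genes, the level was 10.1 and 9.22 CPM on day 0, 19.8 and 22.4 on day 1, 22 and 24.3 on day 2, 17.9 and 19.4 on day 3, and 16.5, 15.8 and 14.7 in the sorted cells. Day 0 lay below all other days, and day 1 and day 2, the highest by mean, overlapped. Without Hist1h1c, a sum added after the data were seen, the values were 6.58 and 6.88 on day 0, 11.5 and 13 on day 1, 12.6 and 15.8 on day 2, 13.7 and 13.3 on day 3, and 13.8, 12 and 10.4 in the sorted cells. The count rule could admit genes through the later days, which bears on these sums and on the class sums below. Over all 70 symbols of the clusters, without the count rule, the sum was 11.1 and 9.64 CPM on day 0. It was 20.7 and 24.6 on day 1, 23.8 and 26.9 on day 2, and 19 and 20.4 on day 3. In the sorted cells it was 17.2, 16.5 and 15.4. No test of a sum was made, and sums are given as values.

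On day 1 the sums of H1 and H2A were carried by single genes: Hist1h1c made 8.84 of the 11.7 CPM of H1, and Hist3h2a 2.61 of the 3.19 of H2A. In H2B, Hist1h2bc made 2.41 and Hist2h2be 1.3 of the 5.13 CPM on day 1. In the sorted cells these 2 genes made 0.759 and 3.62 of the 6.4 CPM of H2B. The 5 H1 genes had 4.89 and 3.31 CPM on day 0, 10.6 and 12.8 on day 1, 11.3 and 11.2 on day 2, 5.97 and 7.67 on day 3, and 3.91, 4.72 and 5.93 in the sorted cells. The 3 H2A genes went from 1.53 and 0.765 on day 0 to 3.52 and 2.86 on day 1, 3.18 and 4.25 on day 2, and 4.17 and 4.21 on day 3, with 3.73, 4.14 and 3.29 in the sorted cells. The 5 H2B genes had 2.99 and 4.5 on day 0, 4.74 and 5.52 on day 1, 6.89 and 7.65 on day 2, 7.11 and 6.46 on day 3, and 7.94, 6.21 and 5.05 in the sorted cells. The 1 H3 gene ran from 0.0375 to 0.49 CPM, and the 2 H4 genes summed to 0.366 to 0.941. H1 libraries were highest on days 1 and 2 and its sorted libraries overlapped with day 0, while all later H2A and H2B libraries lay above day 0. Within H2B, Hist1h2bc was lower in the sorted cells than on day 0. The difference between the classes was not tested. The 6 variant genes together had 791 and 847 CPM on day 0 and 1150 to 1350 in all later libraries.

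**Figure D4:**
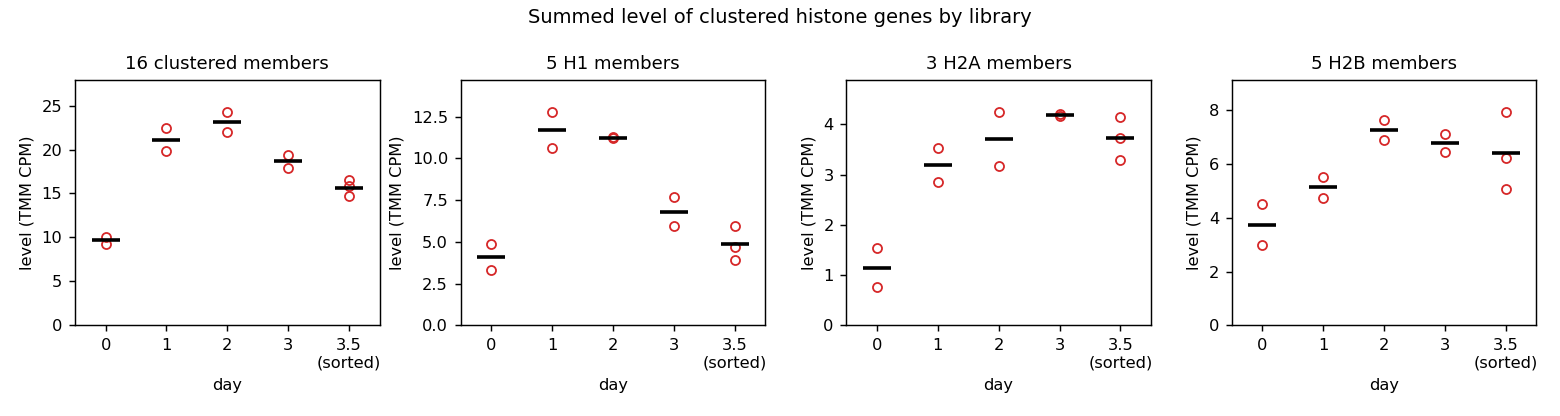
Summed level (TMM CPM, linear axes from 0) of the 16 clustered genes and of their 5 H1, 3 H2A and 5 H2B genes by day; circles are single libraries and bars the mean of the day. The other days lie above day 0 in the summed, H2A and H2B panels, and H1 is highest on days 1 and 2 with 2 sorted libraries, 3.91 and 4.72, inside the day 0 range.

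Other RNA that normally lacks a poly(A) tail was described beside the clustered genes. Its sum rested on few genes and does not measure how strict the selection was. Of 14 such genes listed, 12 were in the table and 2 were tested. Their summed level was 11.1 and 10.1 CPM on day 0, 5.43 and 8.82 on day 1, 8.2 and 9.45 on day 2, 6.03 and 5.58 on day 3, and 3.73, 4.27 and 4.83 in the sorted cells. Most of it was Snora73b, a small nucleolar RNA, which fell by 1.52 ± 0.31 on the log2 scale by day 3 (edgeR adjusted p = 0.00306). Without Snora73b, an alternative added after the data were seen, the sum was 0.984 and 0.849 on day 0 and 1.04 to 3.13 in the later libraries. Most of the sum without Snora73b was Rn7sk, at 0.671 ± 0.107 CPM on day 0 and 1.73 ± 0.55 on day 3. Rn7sk was not called on day 3 against day 0 (1.35 ± 0.52, edgeR adjusted p = 0.0523). The sum thus went the other way from the clustered genes with Snora73b and the same way without it. Its part in the levels of the clustered genes was not tested.

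Genes around histone supply were compared between day 0 and day 3. These lists are described by their counts and medians, to be read beside all genes, of which 27.6 percent were higher and 26.3 percent lower with a median of 0.02. No test was made of a list as such. The lists were chosen with earlier results of these data known, so their shares are a description only. Of 5 other histone variants 3 rose and 1 fell (median 1.53). H2afy2, the gene of macroH2A2, went from 41.5 ± 7.79 to 172 ± 0.221 CPM (2.04 ± 0.19, edgeR adjusted p = 3.55e-05). H2afv, a second H2A.Z gene, rose by 1.53 ± 0.23 (edgeR adjusted p = 0.000631), and H1fx rose by 3.11 ± 0.53 (edgeR adjusted p = 0.0011) from 0.951 ± 0.383 CPM. H2afj was lower on day 3, by -1.24 ± 0.26 (edgeR adjusted p = 0.00377).

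Of 14 genes for histone mRNA synthesis and 3' processing 0 rose and 4 fell (median -0.39). The 28.6 percent called lower is near the 26.3 percent of all genes, and over 18 alternatives 2 to 8 were lower, the 8 without replicate 2 of day 3. Zfp473, which encodes a zinc finger protein of the U7 particle used in cutting histone mRNA, had 72 ± 3.91 CPM on day 0, 37 ± 1.34 on day 1, 17.4 ± 0.644 on day 2, 14.8 ± 0.275 on day 3 and 8.15 ± 0.822 in the sorted cells. Its log2 fold change was -2.29 ± 0.17 on day 3 (edgeR adjusted p = 1.29e-05), and -0.85 ± 0.15 from day 3 to the sorted cells (edgeR adjusted p = 0.0102). It was the only gene of the histone, chaperone and cell cycle lists called there. Cpsf2, a subunit of the same complex, was lower by -0.87 ± 0.18 (edgeR adjusted p = 0.0032).

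Slbp itself had 136 ± 13.6 CPM on day 0 and 79.4 ± 22.5 on day 3 (-0.78 ± 0.21, edgeR adjusted p = 0.0124), a call that held in 13 of 18 alternatives and was lost in the 3 FPKM settings and without replicate 2 of day 0 or replicate 1 of day 3. Without either of these libraries 2 of the 14 genes were called lower. Of 6 genes for histone mRNA decay 1 rose (16.7 percent) and 3 fell (50 percent; 1 to 4 lower over the alternatives, with 1 without replicate 1 of day 3), among them Lsm1 with -1.15 ± 0.18 (edgeR adjusted p = 0.000711) and Slbp, which is in both lists. Of 13 general polyadenylation genes 1 rose (7.69 percent) and 5 fell (38.5 percent; median -0.24), with 2 lower in each of the 3 FPKM settings, 1 lower without replicate 1 of day 3 and 2 without replicate 2 of day 0. Clp1 was lower by -1.23 ± 0.15 (edgeR adjusted p = 0.000201). Pabpn1, the nuclear poly(A) binding protein gene, rose from 12.8 ± 1.28 to 34.8 ± 5.14 CPM (edgeR adjusted p = 0.000586), but its FPKM went the other way, from 212 ± 34.8 to 165 ± 14.6.

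Of 12 chaperones that bring histones to replicating DNA 0 rose and 7 fell (58.3 percent; median -0.72), and 5 were not called. Over the alternatives 2 to 10 were lower, with 2 for log2(FPKM + 1) without a filter, 10 with a GC offset and 4 without replicate 1 of day 3. Hat1, which acetylates new H4, went from 722 ± 148 to 219 ± 45.4 CPM (-1.73 ± 0.23, edgeR adjusted p = 0.000286), and Chaf1b, a subunit of the assembly factor CAF-1, was lower by -0.88 ± 0.17 (edgeR adjusted p = 0.002). Of 14 genes of chaperones and remodelers listed as acting outside replication 3 rose (21.4 percent) and 1 fell (7.14 percent, with a median of -0.02). Without replicate 1 or replicate 2 of day 3, 1 was called higher, and without replicate 2 of day 0 or either library of day 2, 2 were. Without replicate 1 of day 0 and without a low-count filter 2 were lower, and 4 with a GC offset. Ubn1, a subunit of the HIRA complex that deposits H3.3, rose by 0.92 ± 0.15 (edgeR adjusted p = 0.000855), and Ino80, a remodeler, was lower by -1.14 ± 0.20 (edgeR adjusted p = 0.00123).

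Cell cycle genes were compared over the same interval. Of 19 genes of DNA replication and S phase tested 0 rose and 14 fell (median -0.73), and over 18 alternatives 6 to 17 were lower and 0 higher, the 6 without replicate 1 of day 3 and also with log2(FPKM + 1) without a filter. Ccne1, cyclin E1, which drives entry into S phase, went from 468 ± 21.2 to 89.1 ± 28 CPM (-2.40 ± 0.21, edgeR adjusted p = 3e-05). Of 11 genes of cell cycle exit 11 rose (median 1.35), with 7 to 11 over the alternatives, 7 with log2(FPKM + 1) without a filter. Cdkn1b, the inhibitor p27, rose from 41.4 ± 4.04 to 124 ± 5.91 CPM (edgeR adjusted p = 6.56e-05). On day 1 against day 0, 5 of the 11 cell cycle exit genes were called higher and 2 lower. The part of these changes in the histone genes was not tested.

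**Figure D5:**
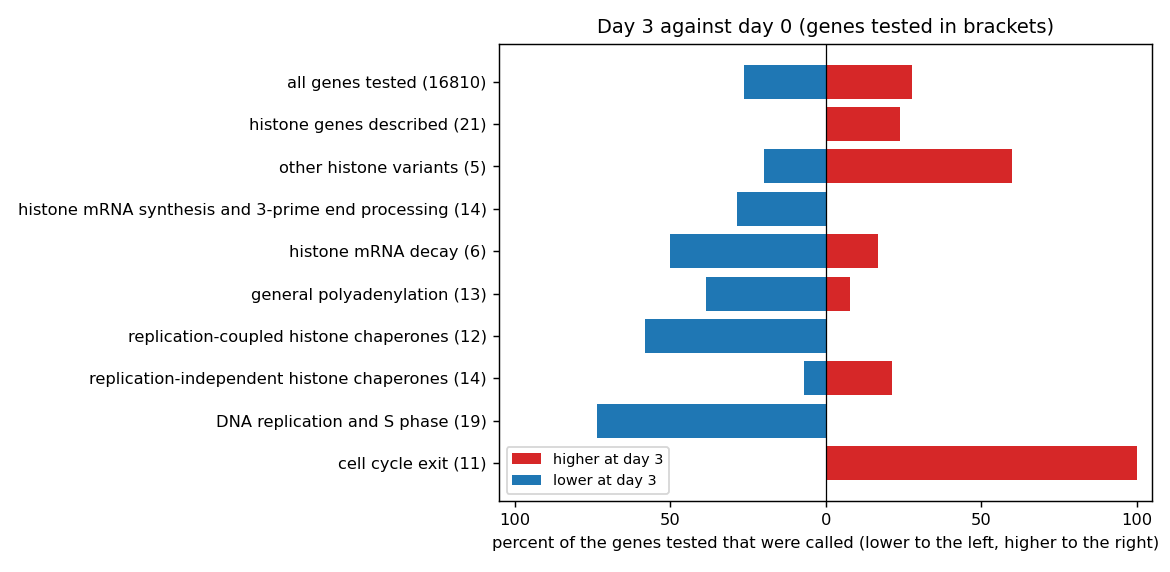
Percent of the genes tested in each list that edgeR called higher (red, to the right) or lower (blue, to the left) on day 3 against day 0, with the number tested in brackets. The 21 histone genes show 23.8 percent higher, near the 27.6 percent of all genes, cell cycle exit shows 100 percent higher, and DNA replication and S phase 73.7 percent lower. The lists were chosen with earlier results of these data known.

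Markers of the cells changed over the same days. Summed CPM of 6 stem cell markers, Nanog and Esrrb among them, was 594 to 994 on day 0 and 19.4 to 26.5 on day 3. For 6 neuron markers it was 337 to 366 on day 0, of which Stmn2 made 309 ± 22.2, 74.7 to 81.6 on day 2 and 808 to 935 on day 3. For 6 neural progenitor markers it was 967 to 982 on day 3 and 1310 to 1570 in the sorted cells. Of these 6 only Fabp7 was called there (2.76 ± 0.36, edgeR adjusted p = 0.00147). Prom1 (Prominin-1) was not called (0.33 ± 0.15, edgeR adjusted p = 0.315), nor was Nes (0.61 ± 0.16). Sox1 (-0.35 ± 0.17) and Pax6 (-0.17 ± 0.51) were lower by mean, without a call. Neuron markers were still at 752 to 1200 in the sorted cells. Extraembryonic endoderm markers were at 137 to 174 on day 3 and 33.5 to 39.2 in the sorted cells, with Gata4 at 33 ± 10.4 and 0.979 ± 0.667. Mesoderm markers were at 16.1 to 27.8 on day 0, 38.4 to 38.9 on day 1, 29.5 to 35.8 on day 2, 14.8 to 24.1 on day 3 and 12.9 to 17.4 in the sorted cells. Among them Meox1 rose from 4.07 ± 0.584 to 31.6 ± 0.0266 CPM by day 1 (edgeR adjusted p = 0.00223) and T fell from 11 ± 6.5 to 0.285 ± 0.352 (edgeR adjusted p = 0.00351). The part of these cell types in the histone levels was not tested. In bulk RNA, fewer cells of a type and less RNA per cell cannot be told apart.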

How the data were processed

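RNA-seq of 11 poly(A)-selected libraries was analysed. Per the submitters' processing notes, the authors used TopHat2 2.0.4, Cufflinks 2.1.1, HTSeq 0.6.1, limma, CASAVA and bcl2fastq 1.8.3 with the build GRCm38 (mm10). The deposited count table was treated as estimated counts, since 104 genes (0 of those described) have fractions, and was rounded. The deposited log2 values equal log2 CPM of these counts within 4.97e-14. The deposited FPKM values, a level per length, served for levels between genes and for alternatives. Members and lists were chosen with earlier results of these data known.

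Counts of days 0 to 3 were fitted with edgeR 4.0.16 (R 4.3.3), TMM scaling, a low-count filter and the quasi-likelihood test; day 3.5 against day 3 used all 11 libraries. DESeq2 1.42.0 and limma 3.58.1 gave alternatives, and the fits were tested on simulated data. Genes named are the 6 variants, the 3 highest clustered genes of each class, called genes by size of change, and up to 3 called genes of a list by adjusted p. Columns left unused numbered 0. Cdt1, Rn7s1 and Rn7s2 were not analysed here. Intervals cover counting error only.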

Additional observations from a re-analysis of the deposited data

How the results depend on the processing

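The 9 calls of single genes kept their direction in all alternatives except H2afx on day 3 against day 0, which turned to -0.45 with a GC offset. H1f0 (both comparisons) and, on day 3 against day 0, H2afy and Hist3h2a kept their calls in 18 of 18 alternatives, while Hist1h1c and Hist3h2a on day 1 (1.28 and 0.96) and Hist3h2ba on day 3 (1.87) were not called with log2(FPKM + 1) without a filter. From day 1 to day 2 the 0 genes called higher became 1 with RLE size factors, DESeq2 or other libraries in the fit, 2 without a low-count filter or with a GC offset, and 0 to 2 when leaving out 1 library. On day 3 against day 0 the 5 higher became 3 with log2(FPKM + 1) without a filter, 7 with log2(FPKM + 1) or a GC offset, 6 without a low-count filter or with other libraries in the fit, and 4 to 6 when leaving out 1 library. The 0 lower became 1 without a low-count filter, with DESeq2, with other libraries or in each of the 3 FPKM settings, 3 with a GC offset, and 0 to 1 when leaving out 1 library. In the sorted cells against day 3 the 0 higher became 1 with a GC offset, H2afy. The cause of these differences was not tested.

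With the replicate number as a block, 4 genes were called higher on day 1 and 4 on day 3, against 4 and 5, and 5 changed over the days; H2afx lost its call (0.65, edgeR adjusted p = 0.0747). Same-numbered libraries had correlations of deviations from -0.45 to 0.18, so the numbers were not taken to pair the samples. Groups of 2 libraries and counts under 10 for 8 of 16 clustered genes in both day 0 libraries limit the precision. In all 3 sorted libraries 10 of the 16 were under 10 counts, which limits it there too. Sums without single genes, the overlapping genes and list counts under alternatives were added after the data were seen.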
